A study of Mus musculus with 8 samples.

Results

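The genes of the integrins and laminins were followed in A223, a cell line from a squamous carcinoma of the mouse. Members were chosen by symbol: rows beginning with Itga or Itgb, apart from Itgbl1 and the Itgb1bp genes, and the rows of the laminin alpha, beta and gamma chain genes (Lama, Lamb and Lamc). The rule took 39 of the 24411 rows, and 30 of these had enough counts to be tested, beside 12517 of all genes. Of the 39, 27 encode integrin chains and 11 encode laminin chains. The remaining row, Itgb3bp, encodes a centromere protein that only shares the letters of the symbol. It is left out of the counts below, so that 38 chains were followed and 29 were tested. Polyadenylated RNA was measured in 8 libraries, 2 for each of 4 groups: parental cells with DMSO at 0 h, parental cells with 100 nM largazole at 18 h, PRDX6 knockdown (KD in the figures) cells with DMSO at 0 h, and knockdown cells with 100 nM largazole at 18 h. Largazole inhibits class I histone deacetylases, and the PRDX6 protein, a peroxiredoxin, removes peroxides, among them those of membrane lipids. All groups are of this 1 line. How the knockdown was made is not given in the sources used here, and no cells with a control construct were analysed. The largazole comparison changes time as well as drug, and their effects cannot be told apart.

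An integrin is a pair of transmembrane chains, an alpha and a beta. It binds matrix outside the cell and, mostly through talin and kindlin, the actin cytoskeleton inside it. A laminin is a cross-shaped trimer of an alpha, a beta and a gamma chain, secreted into the basement membrane, where integrins with the alpha chains of Itga3, Itga6 and Itga7 bind it. In squamous epithelium the chains of Lama3 and Lamb3 belong to laminins held by the integrin of Itga6 and Itgb4 in the hemidesmosome, which anchors basal keratinocytes. Itga5 with Itgb1 makes the main fibronectin receptor. The chain of Itgav pairs with those of Itgb3, Itgb5, Itgb6 and Itgb8, among others. The chains of Itgb2 and Itgb7 are best known from leukocytes.

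Libraries held between 13020492 and 15613216 counts. Prdx6 stood at 297 and 283 CPM (counts scaled to library size, with TMM factors) in parental DMSO and at 86.6 and 79.2 CPM in knockdown DMSO. Rn45s, the ribosomal RNA precursor, differed between replicates, most of all in knockdown largazole with 23915 and 742 CPM, and all calls were also made without it. The labels do not say whether replicates are separate cultures. A p-value here sets a difference against the spread between replicates, estimated over all 4 groups together, and this spread may be technical. The labelled cell type was compared with 12 markers of squamous epithelium. In the 4 DMSO libraries Krt5, Krt14, Krt17, Krt6a, Trp63, Epcam and Cdh1 were each at or below 0.222 CPM, while the simple-epithelial keratin genes Krt8 and Krt18 stood at 1908 to 2267 and at 94.8 to 130.5 CPM. The defining genes of basal keratinocytes were thus at or near 0. Of 7 fibroblast markers Pdgfra was high, at 395 to 548 CPM in the DMSO libraries. All 7 together summed to 575 and 583 CPM in parental DMSO and 925 and 976 CPM in knockdown DMSO, and 1 stayed under 1 CPM in every library.

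Promoter windows came from a RefSeq table (GRCm38.p6, the assembly of mm10) and run from 250 bases before to 50 bases after a transcript start. Lama3 was left out of this search. Without it, 25 of the 39 rows had an entry, and these entries comprised 28 windows. The 4 windows printed here belong to the laminin genes with the largest rises under largazole among those with an entry, Lama5 and Lamb3, and to the abundant integrin genes that fell, Itga5 and Itgb7. They lie at chr2:180225810-180226109 (Lama5, minus strand), chr1:193301744-193302043 (Lamb3, plus strand, the first of its 2 windows), chr15:103366742-103367041 (Itga5, minus strand) and chr15:102231886-102232185 (Itgb7, minus strand). Sequences run from 5′ to 3′ on the gene's strand, and capitals mark every match to the GC box GGGCGG, bound by Sp1, the TEAD motif GGAATG or the AP-1 motif TGANTCA, searched on both strands, so that CCGCCC is a GC box on the other strand.
Lama5: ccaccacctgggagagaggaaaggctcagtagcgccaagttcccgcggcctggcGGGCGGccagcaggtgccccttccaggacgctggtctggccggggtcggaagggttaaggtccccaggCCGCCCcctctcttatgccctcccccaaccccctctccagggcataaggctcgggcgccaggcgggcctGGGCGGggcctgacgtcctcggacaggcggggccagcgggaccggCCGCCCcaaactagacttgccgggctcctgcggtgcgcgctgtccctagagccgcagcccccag
Lamb3: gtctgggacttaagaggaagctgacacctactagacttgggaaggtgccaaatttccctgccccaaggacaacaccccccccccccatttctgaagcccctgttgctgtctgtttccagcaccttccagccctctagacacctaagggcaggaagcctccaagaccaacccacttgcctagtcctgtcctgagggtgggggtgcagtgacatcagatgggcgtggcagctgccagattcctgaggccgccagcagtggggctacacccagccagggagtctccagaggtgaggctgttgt
Itga5: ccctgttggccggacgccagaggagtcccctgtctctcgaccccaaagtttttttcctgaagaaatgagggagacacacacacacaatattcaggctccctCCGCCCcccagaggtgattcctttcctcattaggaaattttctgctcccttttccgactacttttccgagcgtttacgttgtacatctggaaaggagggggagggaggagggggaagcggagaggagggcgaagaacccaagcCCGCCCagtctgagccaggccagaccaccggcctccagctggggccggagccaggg
Itgb7: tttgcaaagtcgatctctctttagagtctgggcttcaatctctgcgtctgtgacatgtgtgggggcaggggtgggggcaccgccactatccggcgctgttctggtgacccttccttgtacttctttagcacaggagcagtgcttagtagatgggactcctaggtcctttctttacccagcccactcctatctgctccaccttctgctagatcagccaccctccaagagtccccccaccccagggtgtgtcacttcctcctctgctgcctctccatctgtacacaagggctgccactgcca
The risen genes had unlike windows. That of Lama5 held 72.7% G and C, 24 CpG pairs and 4 GC boxes, and the printed one of Lamb3 held 59.3% G and C, 2 CpG pairs and none of the 3 motifs. The second Lamb3 window, not printed, held 5 CpG pairs and 1 TEAD motif. Among the genes that fell, the Itga5 window held 2 GC boxes and 13 CpG pairs and the Itgb7 window none of the motifs and 5 CpG pairs. The GC box was in 12 of the 28 windows, the AP-1 motif in 3 and the TEAD motif in 3. Of all 32851 windows in the table, 35.7%, 7.81% and 14.7% held them, in that order, and the median G and C content was 52.7%. A match is a run of letters and not a measured binding site.

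Largazole changed most of the tested chains in both genotypes. Of the laminin genes Lama5, Lamb3 and Lama3 rose and Lamc1 fell, and of the integrin genes Itgb5, Itgb4 and Itga7 rose while Itga5, Itga6 and Itgb7 fell. In parental cells 16 of 29 tested chains rose and 6 fell (edgeR's quasi-likelihood test, adjusted p under 0.05), 75.9% in all, where 49.3% of all tested genes were called, 26.8% higher and 22.6% lower. In knockdown cells 12 rose and 6 fell, 62.1% in all, where 47.7% of all genes were called, 24.6% higher and 23.1% lower. The median log2 fold change of the tested chains was 0.767 in parental and 0.511 in knockdown cells, beside 0.029 and 0.010 over all genes. Rises are favoured in these shares, because Itgae, Itgal, Lama2 and Lamc3 entered the test only through their largazole libraries. Without these 4, 12 of 25 rose and 6 fell in parental cells, with a median of 0.481, and 8 rose and 6 fell in knockdown cells, with a median of 0.163. The responses in the 2 genotypes share no library: 12 chains rose and 5 fell in both, and none was called in opposite directions. Without the 4 that entered through their largazole libraries, 8 of 25 rose and 5 fell in both. Of all genes 21.0% rose and 17.9% fell in both, and 0.12% were called in opposite directions. The shares over all genes, here and above, keep the genes that entered in this way. The chains Itga1, Itga3, Itga8, Itga10 and Itgb3 were called only in parental cells and Itgb2 only in knockdown cells. Whether these 6 responses differ between genotypes is tested further on.

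**Figure D1:**
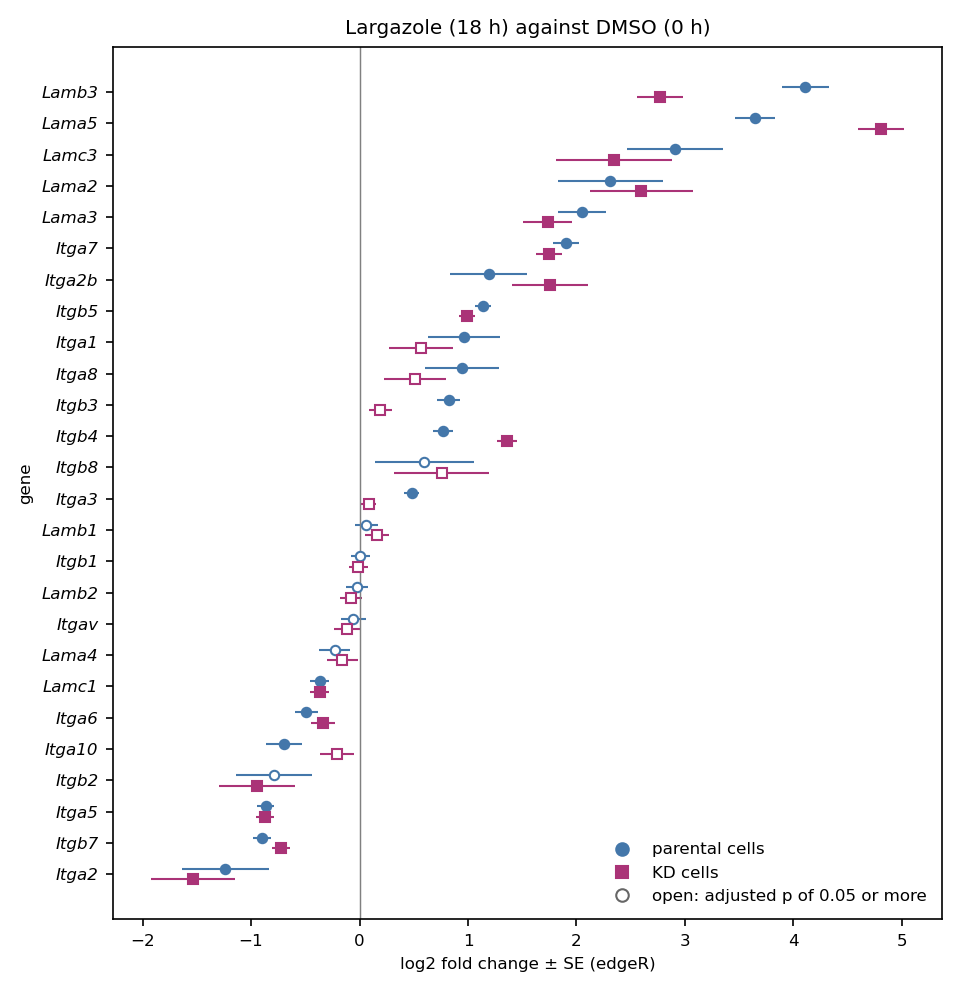
Log2 fold change of largazole at 18 h against DMSO at 0 h (x axis, with SE as bars) for tested chains (y axis), circles for parental and squares for knockdown cells, filled where the adjusted p is under 0.05. Lamb3 (4.11 and 2.77) and Lama5 (3.65 and 4.81) lie farthest to the right, and in parental cells Itga2, Itgb7 and Itga5 lie farthest to the left. Itgal and Itgae, at or near 0 counts in DMSO, are not drawn.

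Lama5 (chromosome 2, 180176373 to 180225859, minus strand, GRCm38, protein-coding) encodes the alpha chain of the most widespread laminins of adult epithelia. It stood at 8.58 and 11.7 CPM with DMSO and 117 and 138 CPM with largazole in the parental line, and 3.10 and 3.54 CPM with DMSO and 79.6 and 106 CPM with largazole in the knockdown line. Every largazole library was thus above every DMSO library, and within DMSO both knockdown libraries were below both parental ones. The log2 fold change with largazole was 3.65 ± 0.19 in parental cells (SE, adjusted p = 5.94e-07) and 4.81 ± 0.21 in knockdown cells (adjusted p = 3.63e-07, edgeR's quasi-likelihood test). In bulk RNA, fewer cells of a kind and less RNA per cell cannot be told apart, here and in all results that follow. Lama4, the alpha chain known from vessel walls and mesenchymal cells, had 65.2 and 67.3 CPM with DMSO and 52.8 and 60.4 CPM with largazole in the parental line, and 96.8 and 113 CPM with DMSO and 80.5 and 108 CPM with largazole in the knockdown line. It was higher in every knockdown library than in every parental one, and its log2 fold changes with largazole were -0.23 ± 0.14 (adjusted p = 0.208) and -0.16 ± 0.14 (adjusted p = 0.378). In parental cells the lower level of Lama4 passed with only the parental libraries fitted (adjusted p = 0.0151) and without knockdown largazole replicate 1 or replicate 2 (adjusted p = 0.0367 and 0.0292), and in knockdown cells without knockdown largazole replicate 2 (adjusted p = 0.00662). The 8 endothelial markers summed to between 5.89 and 9.67 CPM, with Kdr and Erg at 0 in every library.

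Lama3 and Lamb3, which encode chains of epidermal laminins found at hemidesmosomes, rose with largazole in both genotypes. Lamb3 (chromosome 1, 193207699 to 193343878, plus strand) stood at 0.813 and 1.08 CPM with DMSO and 15.9 and 17.3 CPM with largazole in the parental line, and 1.25 and 1.40 CPM with DMSO and 8.96 and 9.17 CPM with largazole in the knockdown line. Its groups did not overlap with drug in either genotype, and the rise was 4.11 ± 0.22 in parental cells (adjusted p = 7.71e-07) and 2.77 ± 0.22 in knockdown cells (adjusted p = 6.05e-06). Lama3 moved from 2.81 and 2.29 to 10.4 and 10.7 CPM in parental cells and from 2.11 and 2.95 to 7.72 and 9.04 CPM in knockdown cells, by 2.05 ± 0.22 and 1.74 ± 0.23. Per length Lama3 stood above Lamb3 in parental DMSO, at 0.242 against 0.194 CPM per kb of transcript, and below it in the other groups, at 1.00 against 3.40 in parental largazole, 0.240 against 0.272 in knockdown DMSO and 0.794 against 1.86 in knockdown largazole. Some markers of the squamous list moved with both chains. Epcam was at 0 in all 4 DMSO libraries and at 2.45 to 3.97 CPM under largazole. Trp63 was at 0 and at 0.395 to 0.935 CPM, and Krt14 at 0 to 0.222 and at 1.48 to 3.20 CPM. Of the simple-epithelial keratin genes, Krt18 was called higher and Krt8 lower in both genotypes. Of 8 tested markers 5 rose and 1 fell in parental cells, and 6 rose and 1 fell in knockdown cells. Rises are favoured in these counts. Epcam, Trp63 and Krt14, counted as risen in both genotypes, entered the test only through their largazole libraries. Of all genes 26.8% rose and 22.6% fell in parental cells, and 24.6% and 23.1% in knockdown cells. Of the 12 markers, 5 stayed under 1 CPM in every library, and the list summed to 2005 to 2401 CPM in DMSO and 1171 to 1615 CPM under largazole, most of it Krt8. The part of these markers in the result was not tested.

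The remaining laminin chains ranged from a high to a very low level. Lamb1, the beta chain of most embryonic and vascular laminins, had between 672 and 865 CPM in all 8 libraries, and Lamb2, the beta chain of synapses and kidney, between 42.9 and 57.4 CPM. Neither was called in any comparison in the fit to all 8 libraries. Without knockdown largazole replicate 1, Lamb1 was called with largazole in knockdown cells and with the knockdown under largazole (adjusted p = 0.00179 and 0.0253), and without knockdown largazole replicate 2, Lamb2 with the knockdown under largazole (adjusted p = 0.0217). Lamc1, the gamma chain of nearly all of these trimers, fell with largazole from 359.7 and 352 to 267 and 285 CPM in parental cells and from 374 and 415 to 286 and 325 CPM in knockdown cells. Its change was -0.37 ± 0.09 in each genotype (adjusted p = 0.00601 and 0.00622), lost in parental cells without parental largazole replicate 1 (adjusted p = 0.0595) and in knockdown cells without knockdown DMSO replicate 2 (adjusted p = 0.0789). Lamc3, a gamma chain of restricted tissues, rose from 0.665 and 0.607 to 4.84 and 4.81 CPM in parental cells and from 0.593 and 0.147 to 2.57 and 1.42 CPM in knockdown cells. Lama2, the alpha chain of muscle and nerve sheath, rose from 0.518 and 0.405 to 2.72 and 1.91 CPM and, in knockdown cells, from 0.659 and 0.221 to 2.34 and 3.17 CPM. Lama1, the alpha chain of the early embryo, had 1 count in all libraries together.

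**Figure D2:**
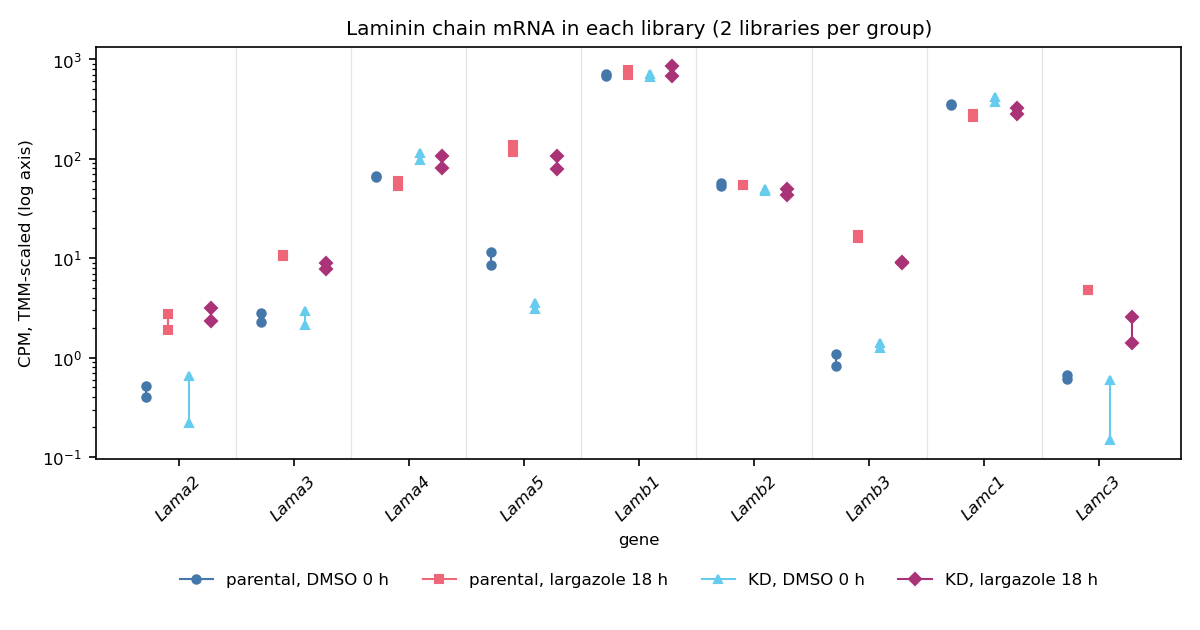
CPM of tested laminin chains (x axis) in each library (y axis, log scale), with 2 joined points for the 2 libraries of a group. Under largazole Lama5 reaches 79.6 to 138 CPM from 3.10 to 11.7 CPM, while Lamb1 stays between 672 and 865 CPM in all libraries.

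Divided by transcript length, the alpha chains showed a change in make-up. Of the summed CPM per kb of the 5 laminin alpha genes, Lama5 held 6.35% and 8.25% with DMSO and 50.6% and 51.97% with largazole in the parental line, and 1.64% and 1.60% with DMSO and 32.8% and 32.9% with largazole in the knockdown line. Lama4 held 90.95% and 89.6% with DMSO and 43.1% and 42.8% with largazole in the parental line, and 96.7% and 96.8% with DMSO and 62.6% and 62.9% with largazole in the knockdown line. Lama4 was therefore the main alpha chain in 6 of the 8 libraries, and Lama5 in both parental largazole libraries. The sum itself was 12.1 ± 0.402 CPM per kb in parental DMSO, 21.8 ± 2.17 in parental largazole, 17.96 ± 1.998 in knockdown DMSO and 24.8 ± 4.99 in knockdown largazole (SD, n = 2 libraries). Alpha chains were scarce beside the others: in parental DMSO the beta genes summed to 131 ± 3.995 and the gamma genes to 52.3 ± 1.27 CPM per kb. Each length is that of the longest protein-coding transcript in GENCODE M21. Which transcript of a gene the cells used was not measured, and a shorter one would raise its level per kb. The shares are given as values, with no test.

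**Figure D3:**
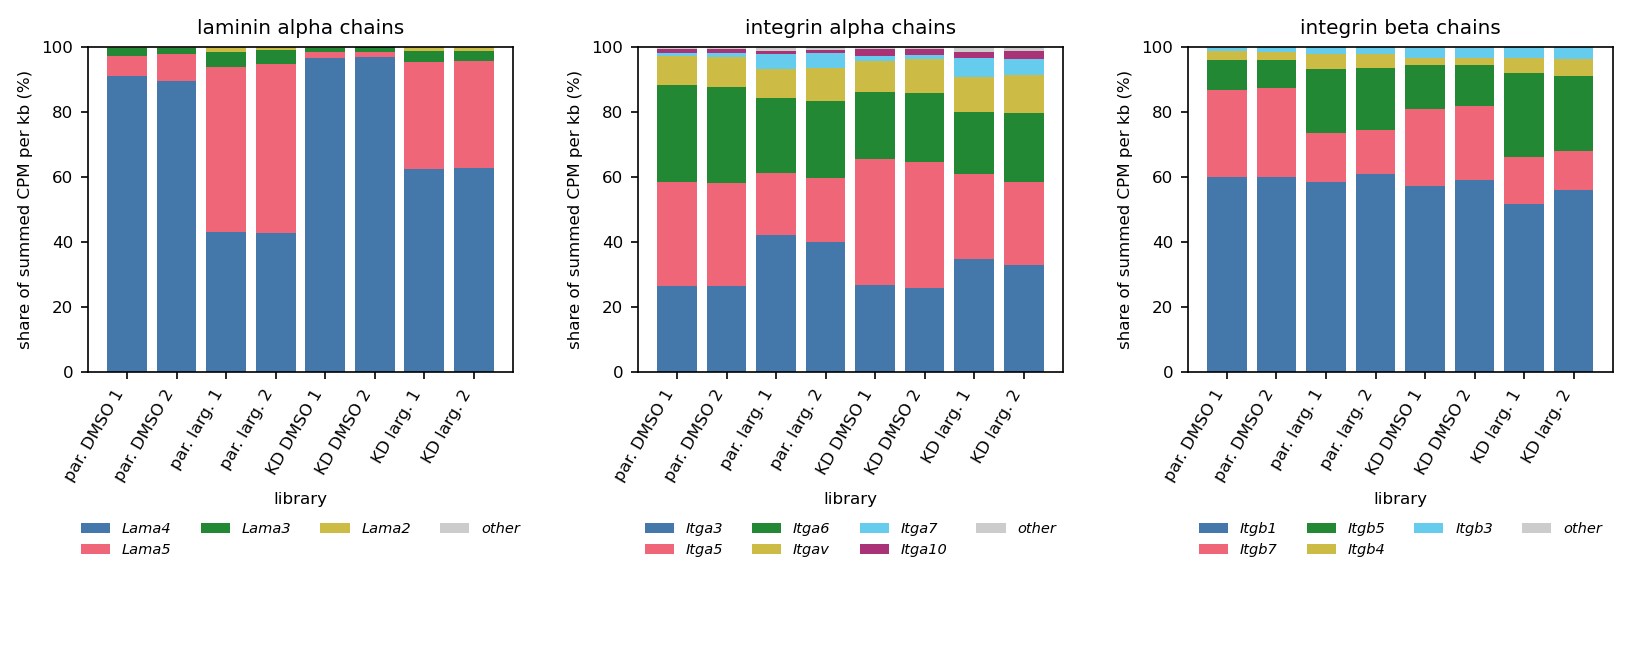
Share of each chain in the summed CPM per kb (y axis, %) of its class in each library (x axis), for laminin alpha, integrin alpha and integrin beta chains. Lama5 takes 50.6% and 51.97% of the laminin alpha sum in parental largazole against 6.35% and 8.25% in parental DMSO, and Itgb5 grows as Itgb7 shrinks with largazole in both genotypes.

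Among integrins that bind laminin, the chains of 1 receptor moved in opposite directions. Itgb4 (chromosome 11, 115974709 to 116008412, plus strand), whose chain pairs only with that of Itga6 and binds plectin in the hemidesmosome, had 98.0 and 92.9 CPM with DMSO and 161 and 164 CPM with largazole in the parental line, and 69.5 and 72.9 CPM with DMSO and 167 and 197 CPM with largazole in the knockdown line. Its rise was 0.77 ± 0.09 in parental cells (adjusted p = 0.000102) and 1.36 ± 0.09 in knockdown cells (adjusted p = 3.04e-06). Itga6 (chromosome 2, 71745616 to 71858416, plus strand) had 391 and 388 CPM with DMSO and 266 and 289 CPM with largazole in the parental line, and 264 and 286 CPM with DMSO and 191 and 244 CPM with largazole in the knockdown line. Itga6 was thus lower in all 6 treated or knockdown libraries than in parental DMSO, and its fall with largazole was -0.49 ± 0.11 in parental cells (adjusted p = 0.00423) and -0.34 ± 0.11 in knockdown cells (adjusted p = 0.0277). The fall in knockdown cells was lost with only the knockdown libraries fitted (adjusted p = 0.0977), and without either parental DMSO library, parental largazole replicate 2 or either knockdown DMSO library (adjusted p = 0.0503 to 0.177). Per kb Itga6 stayed above Itgb4 in each group, at 90.5 against 15.4 in parental DMSO and 50.5 against 29.4 in knockdown largazole. Exons of Itgb4 overlap those of B230344G16Rik over 8.41% of their length.

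Itga3 (chromosome 11, 95044474 to 95076801, minus strand), an alpha chain for laminins of epidermis and kidney, had 396 and 391 CPM with DMSO and 553 and 546 CPM with largazole in the parental line, and 387 and 397 CPM with DMSO and 399 and 433 CPM with largazole in the knockdown line. Only the parental largazole libraries stood apart: the log2 fold change with largazole was 0.48 ± 0.07 in parental cells (adjusted p = 0.000347) and 0.08 ± 0.07 in knockdown cells (adjusted p = 0.354). Itga7, the laminin receptor chain of muscle, rose from 12.9 and 14.2 to 50.1 and 51.4 CPM in parental cells and from 17.8 and 14.6 to 53.5 and 55.4 CPM in knockdown cells. The groups did not overlap, and the changes were 1.90 ± 0.12 and 1.74 ± 0.12 (adjusted p = 1.84e-06 and 2.90e-06). Itgb1 (chromosome 8, 128685654 to 128733200, plus strand), the beta chain that pairs with those of Itga3, Itga6 and Itga7 and many others, had between 1144 and 1394 CPM in all libraries and was called in no comparison in the fit to all 8 libraries. It was called lower with the knockdown under largazole without knockdown largazole replicate 2 (adjusted p = 0.0141). Itgb1 held 51.9% to 60.9% of the summed CPM per kb of the beta genes.

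**Figure D4:**
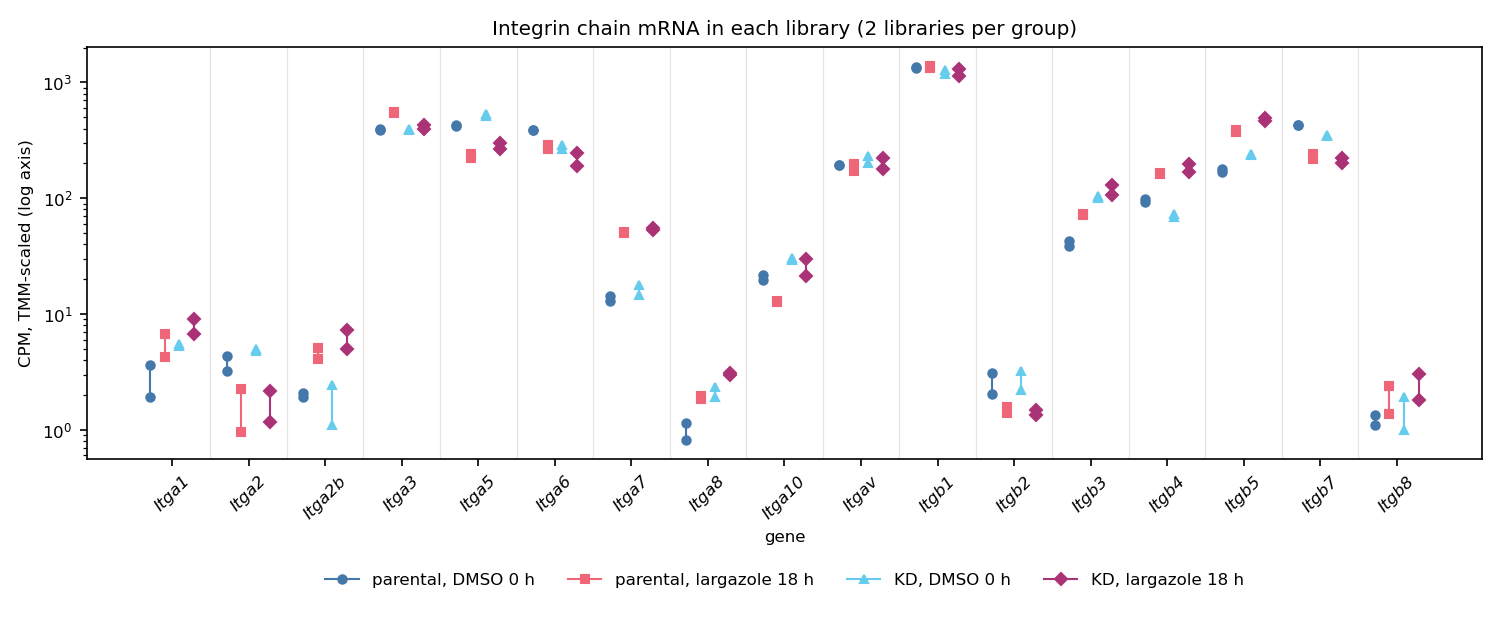
CPM of 17 tested integrin chains (x axis) in each library (y axis, log scale), with 2 joined points for the 2 libraries of a group. Itga7 and Itgb5 are higher and Itga5 and Itgb7 lower in every largazole library than in the DMSO libraries of the same genotype, and Itgb1 stays between 1144 and 1394 CPM.

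Among chains of fibronectin and vitronectin receptors Itga5 fell and Itgb5 rose in both genotypes, while Itgav and Itgb1 were not called in either. Itga5 (chromosome 15, 103344286 to 103366763, minus strand), the alpha chain of the fibronectin receptor, had 428 and 419 CPM with DMSO and 223.2 and 242 CPM with largazole in the parental line, and 509 and 532 CPM with DMSO and 269 and 299.7 CPM with largazole in the knockdown line. It fell by nearly the same amount in each genotype, with log2 fold changes of -0.86 ± 0.08 (adjusted p = 1.89e-05) and -0.87 ± 0.08 (adjusted p = 1.71e-05, edgeR's quasi-likelihood test). Itgb5 (chromosome 16, 33829665 to 33949338, plus strand), a beta chain for vitronectin, had 179.8 and 167 CPM with DMSO and 386 and 375 CPM with largazole in the parental line, and 241 and 237 CPM with DMSO and 491 and 460.1 CPM with largazole in the knockdown line. It rose by 1.13 ± 0.07 and 0.99 ± 0.07 (adjusted p = 2.13e-06 and 4.75e-06). Itgb3 (chromosome 11, 104608000 to 104670476, plus strand), the other vitronectin beta chain and the beta chain of platelets, had 38.5 and 43.1 CPM with DMSO and 73.3 and 71.0 CPM with largazole in the parental line, and 101 and 105.5 CPM with DMSO and 107 and 129.5 CPM with largazole in the knockdown line. Parental DMSO was the lowest group for Itgb3 and no library of it overlapped another group. The change with largazole was 0.82 ± 0.11 in parental cells (adjusted p = 0.000203) and 0.19 ± 0.11 in knockdown cells (adjusted p = 0.157), where it passed without knockdown largazole replicate 1 (adjusted p = 0.00682). Their shared partner Itgav had 172 to 232 CPM. Its DMSO and largazole libraries overlapped in each genotype, with log2 fold changes with largazole of -0.06 and -0.11 (adjusted p = 0.713 and 0.442). Without knockdown largazole replicate 2 Itgav was called lower in knockdown cells (adjusted p = 0.0159). In DMSO Itgav was higher in the knockdown libraries (203 and 232 CPM) than in the parental ones (193 and 192 CPM). This difference was not called (adjusted p = 0.403), and passed with only the DMSO libraries fitted (adjusted p = 0.0435). Of the partners of Itgav named above, Itgb8 had 0.988 to 3.03 CPM and was called in no comparison. Itgb6 had at most 2 counts in a library. Itga8, the nephronectin receptor chain, rose in parental cells from 0.813 and 1.15 to 1.98 and 1.85 CPM (0.95 ± 0.34, adjusted p = 0.0407), a call lost with DESeq2, with no filter, and without any 1 parental or knockdown DMSO library (adjusted p = 0.0541 to 0.213).

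Collagen receptors were few and low. Itga10, best known from cartilage, had 19.7 and 21.6 CPM with DMSO and 12.6 and 12.9 CPM with largazole in the parental line, and 29.2 and 30.2 CPM with DMSO and 21.4 and 29.9 CPM with largazole in the knockdown line. It fell with largazole in parental cells (-0.70 ± 0.16, adjusted p = 0.00569), and in knockdown cells its change was -0.21 ± 0.15 (adjusted p = 0.294), passing without knockdown largazole replicate 2 (adjusted p = 0.00807). Exons of Itga10 overlap Gm42957 over 34.5% of their length, and if strand was not used in counting, some of these counts may belong to that gene. Smaller overlaps were found for Itga1 (Gm49395, 4.11%), Itga8 (E030013I19Rik, 6.4%) and Lamc3 (Gm13441, 5.6%). Itga2, the collagen receptor of keratinocytes and platelets, fell from 4.36 and 3.24 to 0.953 and 2.24 CPM in parental cells and from 4.81 and 5.01 to 1.17 and 2.16 CPM in knockdown cells. Those falls were -1.24 ± 0.40 and -1.54 ± 0.39 (adjusted p = 0.0263 and 0.00872), the first lost without parental DMSO replicate 1 or parental largazole replicate 1 (adjusted p = 0.144 and 0.179). Itga1 rose in parental cells from 1.92 and 3.64 to 4.29 and 6.66 CPM (0.96 ± 0.33, adjusted p = 0.0330), a call lost without parental DMSO replicate 1, parental largazole replicate 2 or either knockdown DMSO library (adjusted p = 0.0506 to 0.260). In knockdown cells Itga1 had 5.47 and 5.30 CPM in DMSO and 6.78 and 9.10 CPM under largazole (0.56 ± 0.29, adjusted p = 0.141), which passed without knockdown largazole replicate 1 (adjusted p = 0.0387). Itga11, the fibroblast collagen receptor, had at most 2 counts in a library.

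Itgb7, known from leukocytes, was among the abundant chains. Itgb7 (chromosome 15, 102215995 to 102231944, minus strand) had 428 and 429 CPM with DMSO and 242 and 217 CPM with largazole in the parental line, and 346 and 351 CPM with DMSO and 221 and 200.5 CPM with largazole in the knockdown line. It fell with largazole by -0.90 ± 0.08 in parental and -0.73 ± 0.08 in knockdown cells (adjusted p = 1.52e-05 and 6.14e-05). Both of its known partners were scarce: Itga4 had 2 counts in all libraries together, and Itgae between 0 and 1.23 CPM. Per kb Itgb7 was second to Itgb1 among the beta genes in DMSO, with 159.6 and 129.9 in parental and knockdown cells against 52.8 and 72.9 for Itgb5. Under largazole Itgb5 was second, with 116 and 145 against 85.6 and 78.6 for Itgb7. No exon of another gene overlaps Itgb7 in GENCODE M21.

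Itgal, the alpha chain of the T cell receptor for ICAM-1, had 0 counts in all 4 DMSO libraries and 25, 14, 14 and 27 counts in the largazole libraries. Against a floor of 3 counts per library it was at least 6.19-fold higher with largazole in parental cells and at least 6.96-fold higher in knockdown cells. Itgae, the E-cadherin receptor chain of intraepithelial lymphocytes, had 27 counts under largazole against 1 in DMSO in parental cells, a ratio of 25.6 (exact 95% interval 4.22 to 1050), and 18 against 3 in knockdown cells, a ratio of 6.24 (1.82 to 33.1). Only counting error enters these intervals and floors. Itgb2, the partner of Itgal, did the opposite, with 2.02 to 3.23 CPM in DMSO and 1.35 to 1.57 CPM under largazole. Its fall in knockdown cells passed narrowly (-0.95 ± 0.35, adjusted p = 0.0476), and was lost with DESeq2, with only the knockdown libraries fitted and without any 1 library other than knockdown DMSO replicate 2 (adjusted p = 0.0519 to 0.277). In parental cells it was -0.79 ± 0.35 (adjusted p = 0.0847), and passed with only the parental libraries fitted (adjusted p = 0.0450). Itgam, Itgax, Itgad and Itgb2l, further chains of this group, had at most 7 counts in a library. Itga2b, the platelet fibrinogen receptor chain, rose from 1.92 and 2.09 to 5.11 and 4.09 CPM in parental cells and from 2.44 and 1.11 to 7.25 and 4.99 CPM in knockdown cells (1.19 ± 0.35 and 1.76 ± 0.35, adjusted p = 0.0177 and 0.00233), the first lost without either parental DMSO library or parental largazole replicate 1 (adjusted p = 0.0771 to 0.105). The call of Itgae in knockdown cells was lost with DESeq2 (adjusted p = 0.0869), and without either knockdown DMSO library or knockdown largazole replicate 1 (adjusted p = 0.0852 to 0.177).

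Leukocyte markers moved with these chains at a low level. The 10 markers summed to 0.296 to 0.593 CPM in DMSO and 3.68 to 4.29 CPM under largazole, Ptprc was at 0 in every DMSO library and at 0.539 to 0.857 CPM under largazole, Coro1a at 0 to 0.461 and at 2.18 to 2.56 CPM, and Cd3e, Adgre1, Ncr1 and Tyrobp were at 0 in all 8 libraries. The 5 platelet markers summed to 1.69 to 2.09 CPM in DMSO and 5.70 to 7.54 CPM under largazole, most of it Gp1bb, while Pf4, Gp1ba and Gp9 were at 0 in all libraries. The part of the markers that rose in the result was not tested. Itgb3bp, the centromere gene that shares the symbol's letters, had 2.70 to 4.68 CPM and was called in no comparison. The remaining alpha chain, Itga9, had at most 2 counts in a library.

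The knockdown changed fewer chains. knockdown cells held more Itgb3, Itgb5, Itga5 and Lama4 mRNA than parental cells in both conditions, and in DMSO less Lama5, Itga6, Itgb4 and Itgb7. In DMSO 5 of 29 tested chains were higher in knockdown cells and 4 lower (edgeR's quasi-likelihood test), 31.0% in all, where 11.1% of all tested genes were called, 7.11% higher and 4.01% lower. Under largazole 5 were higher and 3 lower, 27.6% in all, where 17.8% of all genes were called, 8.12% higher and 9.67% lower. The median log2 fold change of the tested chains was 0.148 in DMSO and 0.102 under largazole, beside 0.000 and -0.003 over all genes. These comparisons have no library in common with each other, but each shares libraries with both largazole comparisons. Fibroblast markers moved with them: 6 of 6 tested were higher in knockdown cells in each condition, with a summed level of 575 to 583 CPM in parental and 925 to 976 CPM in knockdown DMSO, and their part in the result was not tested.

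**Figure D5:**
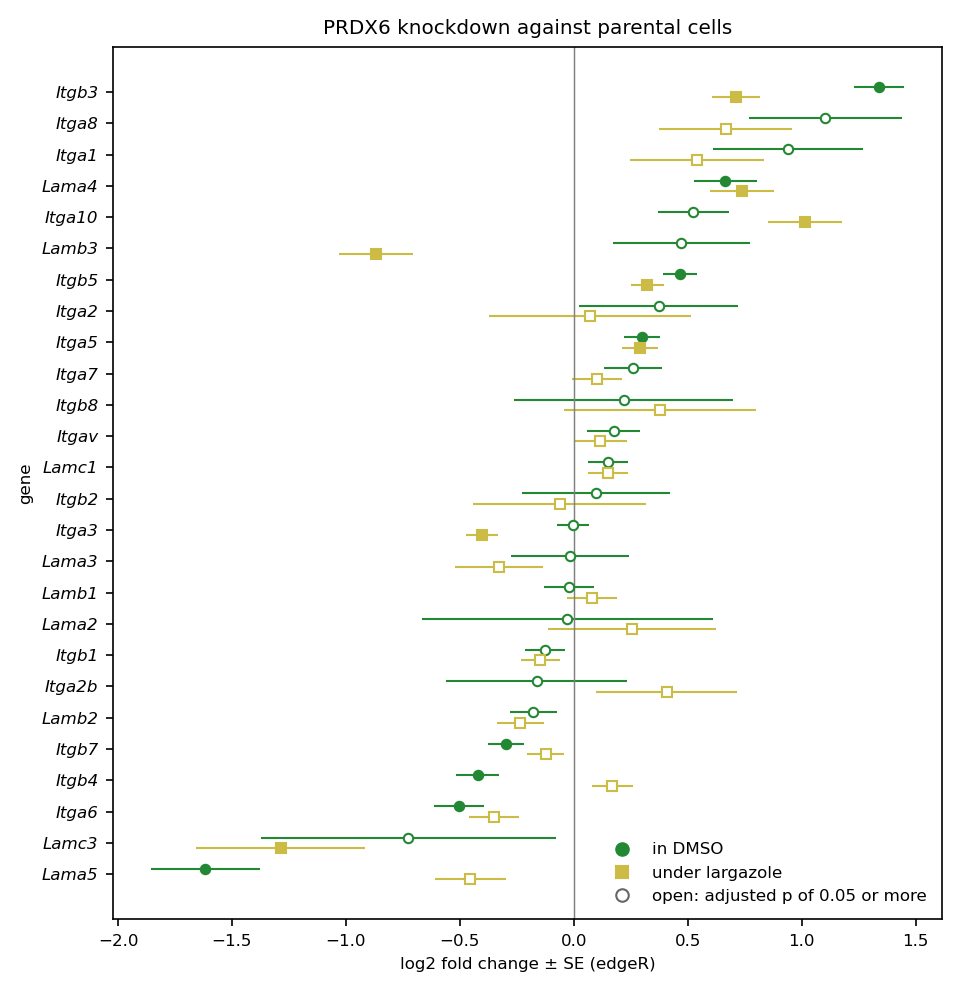
Log2 fold change of KD against parental cells (x axis, with SE as bars) for tested chains (y axis), circles in DMSO and squares under largazole, filled where the adjusted p is under 0.05. In DMSO Itgb3 is at 1.34 and Lama5 at -1.62, the extremes among the chains drawn (Itgal and Itgae, at or near 0 counts in DMSO, are not), and Lamb3 changes side between conditions (0.47 and -0.87, the first not called).

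Itgb3 was higher by 1.34 ± 0.11 in DMSO (adjusted p = 7.55e-05) and 0.71 ± 0.11 under largazole (adjusted p = 0.00173), and both calls held in each of the 15 alternatives run for a comparison. Itgb5 was higher by 0.46 ± 0.07 and 0.32 ± 0.07 (adjusted p = 0.00308 and 0.0143), Lama4 by 0.66 ± 0.14 and 0.74 ± 0.14 (adjusted p = 0.0142 and 0.00630) and Itga5 by 0.30 ± 0.08 and 0.29 ± 0.08 (adjusted p = 0.0382 and 0.0322). Itga10 was higher under largazole (1.01 ± 0.16, adjusted p = 0.00246), a call that held in all 15 alternatives, and had 0.52 ± 0.16 in DMSO (adjusted p = 0.0590). The chains that were lower in DMSO were led by Lama5 with -1.62 ± 0.24 (adjusted p = 0.00207), which held in all 15 alternatives. Under largazole the difference in Lama5 was -0.45 ± 0.16 (adjusted p = 0.0712), and it passed with no filter, with DESeq2 and without knockdown largazole replicate 2 (adjusted p = 0.0196, 0.0406 and 0.000818). Itga6 (-0.50 ± 0.11, adjusted p = 0.0158), Itgb4 (-0.42 ± 0.09, adjusted p = 0.0177) and Itgb7 (-0.30 ± 0.08, adjusted p = 0.0397) completed that group. Under largazole Itga3 (-0.40 ± 0.07, adjusted p = 0.00383), Lamb3 (-0.87 ± 0.16, adjusted p = 0.00540) and Lamc3 (-1.29 ± 0.37, adjusted p = 0.0385) were lower in knockdown cells.

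Several knockdown calls were lost when 1 library was left out. In DMSO the calls of Itga6 and Itgb4 were lost without any 1 of the 4 DMSO libraries (adjusted p = 0.0766 to 0.170, with log2 fold changes of -0.57 to -0.45 and -0.47 to -0.39), and those of Itga5 and Itgb7 without any 1 of these or of the parental largazole libraries (adjusted p = 0.0520 to 0.299, with log2 fold changes of 0.26 to 0.33 and -0.31 to -0.29). Lama4 was lost in DMSO without either parental DMSO library or knockdown DMSO replicate 2 (adjusted p = 0.119 to 0.143), and Itgb5 without parental DMSO replicate 2 (adjusted p = 0.0823). Under largazole, leaving out parental largazole replicate 1 ended the calls of Itga5, Itgb5, Lama4 and Lamc3 (adjusted p = 0.235, 0.0873, 0.0734 and 0.173), and leaving out replicate 2 those of Itga5, Itgb5, Lamb3 and Lamc3 (adjusted p = 0.0888, 0.111, 0.0739 and 0.178). Itga5 was also lost there without any 1 DMSO library (adjusted p = 0.0617 to 0.0759), and Lamc3 without either parental DMSO library or knockdown largazole replicate 2 (adjusted p = 0.0694 to 0.0988). With only the largazole libraries fitted, Itga3, Itga5, Itgb5 and Lamc3 were lost (adjusted p = 0.0694, 0.156, 0.0962 and 0.0559), and with DESeq2 Lamc3 (adjusted p = 0.0804). Conversely, in DMSO Itga1 and Itga10 passed without knockdown largazole replicate 1 (adjusted p = 0.0247 and 0.00173) or replicate 2 (adjusted p = 0.0278 and 0.00255), and Itga8 without replicate 1 (adjusted p = 0.0478). Under largazole Itga6 passed without knockdown largazole replicate 2 (adjusted p = 4.60e-05), as it did with DESeq2 (adjusted p = 0.0281), and Itgb4, Itgav and Lamc1 passed without knockdown largazole replicate 1 (adjusted p = 0.00918, 0.0373 and 0.0194).

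Whether the largazole response differs between genotypes was tested by the difference of the 2 responses. No chain passed (edgeR's quasi-likelihood test), where 0.232% of all tested genes did, 0.0399% higher and 0.192% lower, and 5 of 29 chains had an unadjusted p under 0.05, where 8.70% of all genes had. Those 5 were Lama5 (1.16 ± 0.29, adjusted p = 0.176) and Itgb4 (0.59 ± 0.13, adjusted p = 0.141), with the larger rise in knockdown cells, and Lamb3 (-1.34 ± 0.34, adjusted p = 0.191), Itgb3 (-0.63 ± 0.15, adjusted p = 0.167) and Itga3 (-0.40 ± 0.10, adjusted p = 0.178), with the larger rise in parental cells. DESeq2 called 2 chains, Lama5 (adjusted p = 0.00960) and Itgb4 (adjusted p = 0.0385). The same 2 were called with no filter (adjusted p = 0.0115 and 0.0290), without knockdown largazole replicate 1 (adjusted p = 0.00344 and 0.000768) and without replicate 2 (adjusted p = 0.0287 and 0.0134). Itgb3 and Itga3 were called without knockdown largazole replicate 1 (adjusted p = 0.0331 and 0.0237) or replicate 2 (adjusted p = 0.00301 and 0.00519), and Itga10 without replicate 1 (0.71 on the log2 scale, adjusted p = 0.0295). Of the 6 chains whose largazole response was called in 1 genotype, Itga1 had a difference of -0.40, Itga8 of -0.44, Itga10 of 0.49 and Itgb2 of -0.16 (adjusted p = 0.904, 0.886, 0.584 and 0.980), beside the values of Itga3 and Itgb3 above.

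The partners of these chains inside and outside the cell were taken from lists of other genes. Of 29 tested genes for integrin activation and adhesion adaptors, 10 rose and 10 fell with largazole in parental cells and 8 rose and 9 fell in knockdown cells. Of all tested genes 26.8% rose and 22.6% fell in parental cells and 24.6% and 23.1% in knockdown cells, and these shares are the background of each list that follows. For the knockdown the background was 7.11% higher and 4.01% lower in DMSO, and 8.12% and 9.67% under largazole. The largest rises were of Lims2 (3.79 ± 0.56 and 3.40 ± 0.45) and Tln2, a talin (1.38 ± 0.11 and 1.45 ± 0.11). Lims2 was low in DMSO, with 1 and 11 counts in parental and 22 and 7 in knockdown cells. The knockdown raised 2 and lowered 2 of the 29 in DMSO, and lowered 4 under largazole, among them Bcar1, an adaptor of focal adhesions (-0.33 ± 0.08 and -0.32 ± 0.08). Of 8 hemidesmosome and tetraspanin genes none rose with largazole in either genotype, and Cd82, a tetraspanin that restrains integrins, fell by -1.18 ± 0.12 and -0.58 ± 0.12. Of 11 tested genes of other basement membrane proteins 6 rose and 2 fell in parental cells and 4 rose and 2 fell in knockdown cells, where 49.3% and 47.7% of all genes were called in either direction. Col4a6 rose from 0 and 0.135 to 1.77 and 3.03 CPM in parental cells. In knockdown cells it rose from 0.527 and 0.516 to 2.81 and 4.11 CPM. It entered the test only through its largazole libraries, which favours rises in the counts of this list. Its gene pair Col4a5 rose by 2.21 ± 0.18 and 1.61 ± 0.16 on the log2 scale, and Agrn, a proteoglycan that binds laminin, by 1.62 ± 0.14 in each genotype.

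With the knockdown, Col4a5 and Col4a2 were higher in DMSO (0.85 ± 0.19 and 0.69 ± 0.08), among 4 higher and 1 lower of the 11, and under largazole 3 were higher and 1 lower.

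Among 21 tested genes of other integrin ligands 13 rose and 6 fell with largazole in parental cells (26.8% and 22.6% of all genes), and 11 rose and 4 fell in knockdown cells (24.6% and 23.1% of all genes). Icam1, the ligand of the Itgal and Itgb2 pair, rose by 3.13 ± 0.46 and 3.61 ± 0.44, and Tnc, tenascin C, fell by -1.74 ± 0.10 and -2.12 ± 0.10. With the knockdown 8 were higher and 3 lower in each condition, where 7.11% and 4.01% of all genes were in DMSO and 8.12% and 9.67% under largazole. In DMSO Tnc (1.59 ± 0.10) and Fbn1, fibrillin (1.47 ± 0.11), were higher and Ctgf lower (-1.35 ± 0.17). Cyr61, a ligand of several of these receptors, was the only gene of the 5 lists whose largazole response differed between genotypes (-0.79 ± 0.12, adjusted p = 0.0320), with the deeper fall in knockdown cells. Of 5 other laminin receptors 2 rose and 1 fell with largazole in each genotype. Bcam, which binds the alpha chain of Lama5, was at 0 in all DMSO libraries and at 1.98 to 4.22 CPM under largazole. It is among the 2 that rose, and it entered the test only through its largazole libraries. The knockdown raised Sdc4, a syndecan of focal adhesions, in both conditions (0.35 ± 0.08 and 0.44 ± 0.08), the only 1 of these 5 called.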

How the data were processed

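Polyadenylated RNA of 8 libraries was analysed, 2 in each of 4 groups taken from the sample titles. Per the labels, stranded libraries were made after polyA selection, and per the submitters' processing notes the build was mm10. Aligner, counter, strand setting and annotation were not given in the sources used here. Deposited were expected counts per gene symbol, not normalized, as their fractions and unequal totals show, and were rounded to whole numbers. Groups were compared in edgeR 4.0.16 by its quasi-likelihood test (two-sided), after TMM factors and filterByExpr with a count of 10 and a total of 15 as minimum, in 1 fit of all 8 libraries in which each group had its own mean. Adjusted p is by Benjamini-Hochberg over 12517 genes, with a threshold of 0.05. Dividing the absolute log2 fold change by the root of the F statistic gave its SE. Alternatives were RLE scaling, no filter, a minimum count of 30, DESeq2 1.42.0, fitting only the libraries compared, a replicate block, and leaving out each library (the lone library left is then assumed to vary like the others). Removal of Rn45s was added after seeing the data. Each of the 4 contrasts between groups had 15 alternatives. The test was tested on simulated data, in which all genes and groups had the same dispersion and no gene of low level was changed. This cannot tell how the test does for chains near 1 CPM or for groups of unlike spread. Members and lists were chosen with earlier results of these data known. Members are named, called ones with their values, except 1 that is not reported here, and of each other list up to 3 genes with the largest called change. Totals of 13020492 to 15613216 counts limit precision for genes near 1 CPM. Coordinates, lengths and overlaps came from GENCODE M21 on GRCm38. Software was R 4.3.3 and, for figures, Python 3.11.15 with matplotlib 3.10.9. Protein sequences were not used here.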

Additional observations from a re-analysis of the deposited data

How the results depend on the processing

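The counts of chains called with largazole kept within 1.5 times of the reported ones under RLE scaling, no filter, the minimum count of 30, DESeq2, the replicate block, the fit of only the libraries compared and removal of Rn45s. The counts for the knockdown and for the difference between responses did not. With only the libraries compared, 10 chains were higher with the knockdown in DMSO (5 reported), and under largazole 3 were higher (5 reported) and 1 lower (3 reported). With no filter 5 chains were lower with the knockdown under largazole, and 2 were higher in the difference between responses (0 reported), as with DESeq2 (2). Leaving out 1 library gave 13 to 16 chains higher and 4 to 7 lower with largazole in parental cells, and 11 to 14 higher and 4 to 8 lower in knockdown cells. For the knockdown it gave 1 to 8 higher and 1 to 4 lower in DMSO, and 2 to 9 higher and 1 to 6 lower under largazole, and for the difference 0 to 3 higher and 0 to 2 lower. No called direction of a chain reversed in any of these settings. Apart from the fewer samples or genes fitted, the cause was not tested. The groups were unlike in how far their replicates lay apart. Across genes, the log2 difference between replicates had an SD of 0.133 in parental DMSO and 0.171 in parental largazole. In knockdown cells this SD was 0.176 with DMSO and 0.317 with largazole. Its part in the calls gained or lost without a library, and in the test of the difference, was not tested.

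Replicate numbers were not taken to pair the libraries, since the labels tie them to nothing shared and each group has 2. The log2 deviations of same-numbered libraries, over 10184 genes, correlated between groups with r of 0.013, 0.068, 0.102, 0.333, 0.415 and 0.459, which is a hint of something shared in some groups. With the replicate block 5 chains were lower with the knockdown under largazole (3 reported), the added ones being Lama5 and Itga6 (adjusted p = 0.00236 and 0.00784), and in DMSO Itga1 and Itga10 were called (adjusted p = 0.0233 and 0.0171). In the difference between responses the block gave 2 chains higher, Lama5 (adjusted p = 0.0108) and Itgb4 (adjusted p = 0.0365), and 1 lower, Itgb3 (adjusted p = 0.0412), against 0 and 0. Over all genes the block moved the number lower with the knockdown in DMSO from 502 to 862, and the numbers higher and lower in the difference from 5 and 24 to 27 and 92. DESeq2 gave 21 and 62 there and no filter 25 and 89. With only the libraries compared, 1734 genes were higher and 1514 lower with the knockdown in DMSO (890 and 502 reported), and 530 and 427 under largazole (1017 and 1210 reported). Leaving out 1 library gave 330 to 1626 higher and 84 to 1471 lower in DMSO, 403 to 1984 and 409 to 2137 under largazole, and 1 to 211 and 1 to 333 in the difference. Chains near 1 CPM, such as Itga8, Itgb8 and Lamc3, are limited by their counts.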
